A study of Rattus norvegicus with 16 samples.

Results

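The non-muscle cytoskeleton and annexin genes were followed in the left ventricle of hypertensive and normotensive rats after inhalation of diesel exhaust (DE) or air. The genes are the tubulins, the Arp2/3 complex and other actin-related proteins, the capping proteins, cofilins, profilins and thymosins, the unconventional myosins, the kinesins and their light chains, the annexins, and vimentin, γ-actin, galectin-1, filamin A and the capping protein Capg. They were taken by gene symbol from the platform annotation. Of 15866 probe sets on the array, 119 matched, on 90 genes. A further 11 probe sets that the annotation gives to several genes, a matching one among them, were left out. Cflar, an apoptosis regulator, entered by its name alone, as did the γ-tubulin complex proteins (Tubgcp) and the kinesin-binding protein Kifbp, which are partners and not members of the families they are named for.

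Male rats of 12–14 weeks were exposed whole body, on 5 days/week for 4 weeks, to DE at 2.0 mg particles/m3 or to air. The spontaneously hypertensive (SH) rat develops high blood pressure without treatment, while Wistar Kyoto (WKY) rats served as the normotensive strain. The 4 groups were SH rats given DE (SH-DE), WKY rats given DE (WKY-DE), SH rats given air (SH-air) and WKY rats given air (WKY-air), with 4 biological replicates on 1 array each. The labels give 6 hr of exposure per day, and the study's methods give a shorter day at the same particle level. The 2 strains differ in more than blood pressure, and the arrays cover 1 DE concentration, so that neither a strain difference nor a DE effect can be tied to blood pressure or dose here.

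Actin filaments and microtubules give a cell its shape and carry its internal traffic. The Arp2/3 complex starts new branches on actin filaments, profilin and thymosin hold actin monomers, capping proteins close filament ends, and filamin links filaments to each other and to the membrane. Tubulins form the microtubules along which kinesins walk, while the unconventional myosins move cargo and membrane along actin. Annexins bind acidic phospholipids when calcium rises and take part in membrane repair and trafficking. Vimentin, the intermediate filament protein of mesenchymal cells, and galectin-1, a small secreted lectin, are known in heart mainly from fibroblasts, endothelium and leukocytes, whereas several tubulins, kinesins and annexins are also made by cardiomyocytes.

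The authors deposited MAS5 signals, linear intensities with 1 value for each probe set and array. Signals were converted to log2 after addition of 16.1, the 10th percentile of all values, so a log2 fold change understates the change of a dim probe set. Of the 119 probe sets, 6 had a mean signal below this offset. All 15866 probe sets were fitted together with limma on the 16 arrays, and a call needed an adjusted p below 0.05 by Benjamini and Hochberg and, besides, a raw p below 0.01. Standard errors of pairwise log2 differences had a median of 0.21. The array medians ran from 209 to 216 in WKY-DE and from 173 to 197 in the other 3 groups, and over the whole array the median WKY-DE log2 fold change against air was 0.10. Ventricular cardiomyocyte markers other than Irx4 were bright on all 16 arrays, and atrial cardiomyocyte markers were also present, most of all in WKY-air. Irx4 ran from 6.80 to 15.7 in WKY-DE, below the offset, and reached at most 90.9 on the other arrays. The levels of the marker lists by group are given with the results that they touch.

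In air, 11 of the 119 probe sets were called between the strains, 7 with SH-air below and 4 with SH-air above WKY-air (9.24%, against 3.15% of all probe sets, 1.79% lower and 1.36% higher). The lower ones were Vim, Lgals1, Anxa2, Anxa7, Actg1, Arpc1b and Kifap3, and the higher ones were Klc3, Myo5b, Arpc4 and Myo16. The median log2 fold change of the 119 was 0.01, against 0.02 over all probe sets, with 64 above 0 and 55 below. The groups did not overlap for 19 of the 119, 8 with SH-air above and 11 with SH-air below WKY-air, where 5.66% of all probe sets did so in each direction.

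**Figure D1:**
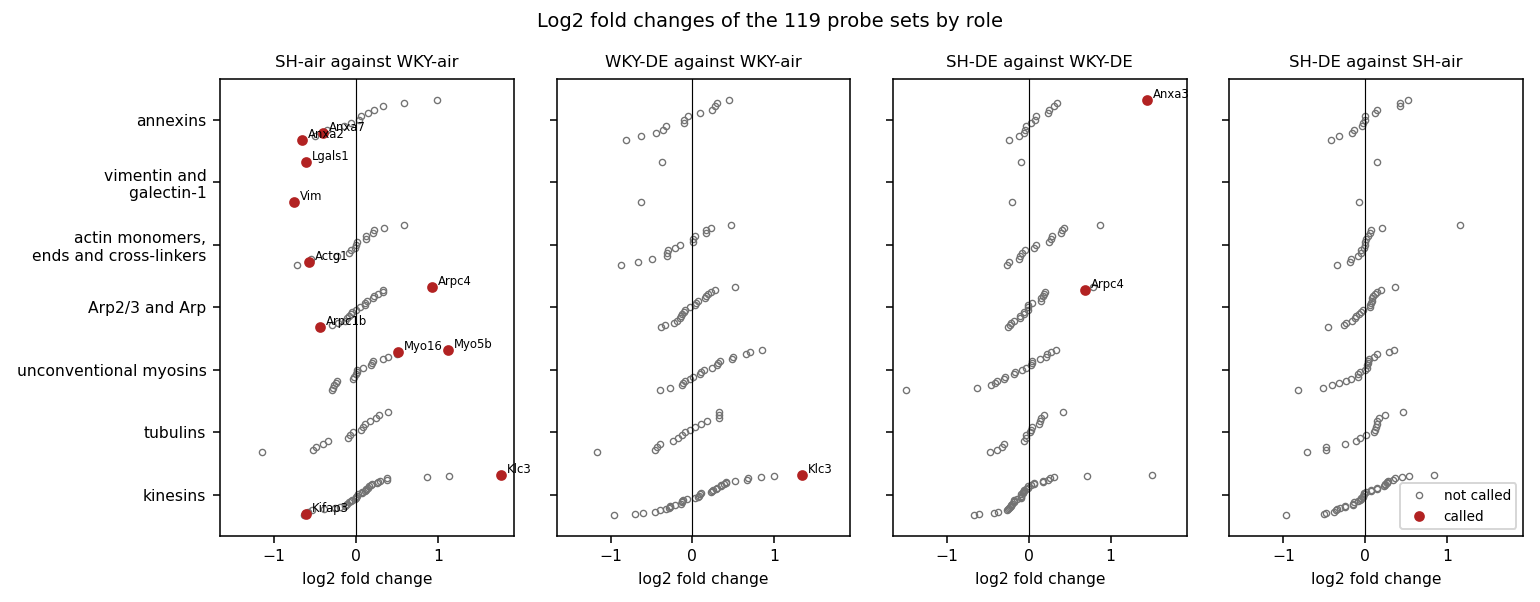
Log2 fold changes (horizontal axis) of the 119 probe sets, in rows by role with no meaning to the height within a row, for 4 comparisons, with called probe sets filled and the others open. The called probe sets number 11 in SH-air against WKY-air, 1 in WKY-DE against WKY-air, 2 in SH-DE against WKY-DE and 0 in SH-DE against SH-air.

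Vimentin and galectin-1 were both lower in SH-air. Vim had signals of 3384, 3845, 3354 and 3427 in SH-air and 4564, 6266, 6822 and 6382 in WKY-air. Every SH-air array lay below the lowest WKY-air array, and the SH-air mean was 58.3% of the WKY-air mean (limma log2 fold change −0.76 with SE 0.18 and adjusted p = 0.0300). Lgals1 had 4347, 4425, 5477 and 4922 in SH-air and 7618, 7305, 6511 and 7838 in WKY-air, again without overlap (limma log2 fold change −0.61 with SE 0.13 and adjusted p = 0.0189). In tissue RNA, fewer cells of a type and less RNA per cell cannot be told apart.

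Of 13 annexin probe sets on 9 genes, 2 were called lower and none higher in SH-air (15.4%, against 3.15% of all probe sets). Anxa2, which bridges membranes and actin as a complex with S100a10, had 2388, 2184, 2786 and 1971 in SH-air and 4384, 3569.7, 3225 and 3606 in WKY-air (limma log2 fold change −0.66 with SE 0.16 and adjusted p = 0.0330). The SH-air arrays kept below all WKY-air arrays, at 63.1% of their mean. Anxa7, a calcium-dependent membrane fusion protein also called synexin, had 567, 546, 585 and 561 in SH-air and 760.1, 718, 716 and 812 in WKY-air on 1 of its 2 probe sets (limma log2 fold change −0.40 with SE 0.09 and adjusted p = 0.0316), a small difference between tight groups. Its other probe set overlapped between the strains (limma log2 fold change −0.15 with SE 0.35 and adjusted p = 0.868). Anxa5, the annexin used as a probe for exposed phosphatidylserine, averaged 6758 ± 879 in SH-air and 6158 ± 1387 in WKY-air (SD, n = 4 each), and Anxa11, an annexin of vesicle traffic, averaged 2842 ± 313 in SH-air and 2768 ± 124 in WKY-air. Neither passed the test (limma adjusted p = 0.644 and 0.918), and the calls covered 2 of the 9 annexin genes.

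Among the 15 probe sets of actin monomers, filament ends and cross-linkers, Actg1 was the 1 called (6.67%, against 3.15% of all probe sets). Actg1 encodes cytoplasmic γ-actin and had 6439.7, 7845, 8637 and 6999 in SH-air and 12558, 11371, 10911 and 9607 in WKY-air, with no overlap (limma log2 fold change −0.57 with SE 0.13 and adjusted p = 0.0274). Its coding sequence is nearly the same as that of β-actin, and whether its probes also read β-actin was not examined. Flna, filamin A, had 1646, 1335, 1105 and 953 in SH-air and 1941, 1754, 1531 and 2088 in WKY-air. These groups overlapped and the difference was not called (limma log2 fold change −0.55 with SE 0.22 and adjusted p = 0.203). Tmsb4x, thymosin β4, the main actin-sequestering peptide, averaged 11866 ± 956 in SH-air and 12544 ± 922 in WKY-air (limma log2 fold change −0.08 with SE 0.14 and adjusted p = 0.809), and Capg, which caps filament ends under calcium control, averaged 374 ± 58.4 in SH-air and 393 ± 85.2 in WKY-air (limma log2 fold change −0.06 with SE 0.19 and adjusted p = 0.912).

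The Arp2/3 complex held called subunits in both directions. Together with the other actin-related proteins, 2 of 19 probe sets were called (10.5%, against 3.15% of all probe sets). Arpc4, a core subunit that binds the actin-related proteins, had 1170.2, 1134, 1182 and 1247 in SH-air and 626, 666, 567 and 603 in WKY-air. All SH-air arrays were well above all WKY-air arrays, 1.92 times as high on average (limma log2 fold change 0.93 with SE 0.13 and adjusted p = 0.00115). Arpc1b, a subunit best known from blood cells, had 919, 1003, 879 and 910.2 in SH-air and 1256, 1131, 1367 and 1320.0 in WKY-air, lower in SH-air without overlap (limma log2 fold change −0.44 with SE 0.10 and adjusted p = 0.0300). Arpc2, which forms the core of the complex together with Arpc4, averaged 3613 ± 107 in SH-air and 3127 ± 189.9 in WKY-air (SD, n = 4 each) and was not called (limma log2 fold change 0.21 with SE 0.11 and adjusted p = 0.335). Actr1b, an actin-related protein of dynactin, averaged 2165 ± 160.3 in SH-air and 2331 ± 94.7 in WKY-air (limma adjusted p = 0.752). The other 15 probe sets of this group were not called either.

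The bases upstream of Vim, Actg1 and Anxa2, picked after their values were seen, are shown because the 3 genes were low together in SH-air. Each is the 250 bases before the annotated start, 5′ to 3′ along the gene, from RefSeq on GRCr8. The stretch of Vim is chr17:81577011-81577260, plus strand, that of Actg1 chr10:106120952-106121201, minus strand, and that of Anxa2 chr8:78986002-78986251, plus strand. Capitals mark the TATA box (TATAAA) and the GC box (GGGCGG) in Vim, the CArG box of serum response factor in Actg1, and the TATA box and the AP-1 site (TGANTCA) in Anxa2, searched on both strands.
Vim: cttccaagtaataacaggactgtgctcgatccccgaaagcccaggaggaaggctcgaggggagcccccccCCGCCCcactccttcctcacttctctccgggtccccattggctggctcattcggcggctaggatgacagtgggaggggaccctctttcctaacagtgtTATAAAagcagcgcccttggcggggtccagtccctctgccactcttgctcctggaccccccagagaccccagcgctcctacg
Actg1: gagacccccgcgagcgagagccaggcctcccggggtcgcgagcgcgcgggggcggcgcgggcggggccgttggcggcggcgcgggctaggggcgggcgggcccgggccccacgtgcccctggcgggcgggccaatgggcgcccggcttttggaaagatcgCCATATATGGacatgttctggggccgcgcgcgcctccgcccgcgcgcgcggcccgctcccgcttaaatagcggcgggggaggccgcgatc
Anxa2: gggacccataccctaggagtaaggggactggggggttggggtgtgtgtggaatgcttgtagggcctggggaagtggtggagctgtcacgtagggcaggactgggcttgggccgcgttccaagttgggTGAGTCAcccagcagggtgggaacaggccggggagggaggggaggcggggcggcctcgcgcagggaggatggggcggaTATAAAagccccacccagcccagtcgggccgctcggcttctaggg
Of 33469 such stretches in the table, 12.9% held the TATA box, 30.5% the GC box, 6.34% the AP-1 site and 1.5% the CArG box. Among the 83 of the 90 genes with a stretch, these shares were 13.3%, 63.9%, 4.82% and 3.61%. The TATA box of Vim lay 82 to 77 bases before the start and that of Anxa2 45 to 40 bases before it. The GC box was the 1 searched motif held by all 3 genes, left in lower case in Actg1 and Anxa2, and it overlapped none of the other motifs. A match of letters is a description and shows no binding.

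**Figure D2:**
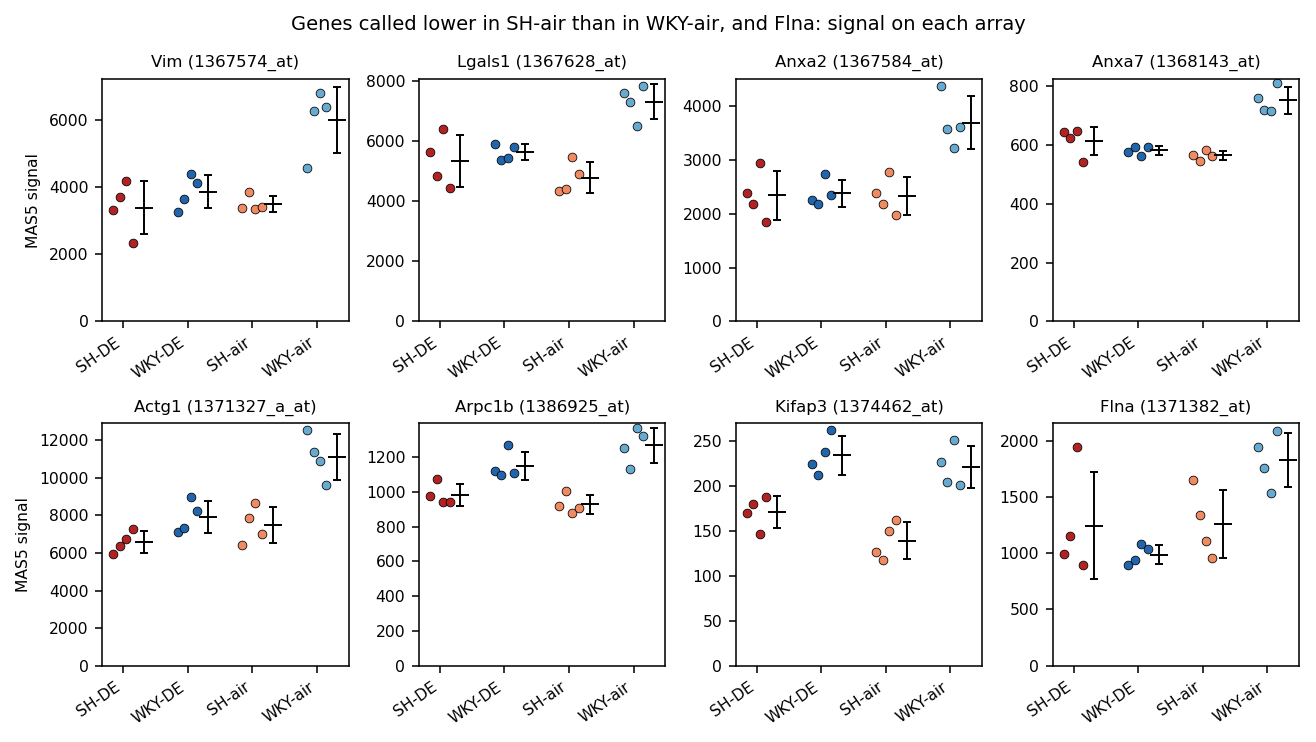
MAS5 signal (vertical axis, linear from 0) of the 7 probe sets called lower in SH-air than in WKY-air, and of Flna, by group, with a point for each of the 16 arrays and a bar for the mean ± SD (n = 4). For Vim, Lgals1, Anxa2, Anxa7 and Actg1 all arrays of SH-DE, WKY-DE and SH-air lie below all WKY-air arrays.

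Among 19 probe sets of unconventional myosins on 14 genes, 2 were called higher in SH-air and none lower (10.5%, against 3.15% of all probe sets). Myo5b, which carries recycling endosomes along actin, had 379.8, 309, 309.7 and 319 in SH-air and 153, 116, 170.5 and 132 in WKY-air. The SH-air signals were 2.31 times as high on average, with no overlap (limma log2 fold change 1.13 with SE 0.18 and adjusted p = 0.00361). Myo16, a myosin known from nerve cells, was dim on 1 of its 2 probe sets, at 21.8, 26.1, 18.8 and 20.4 in SH-air and 10.1, 14.9, 9.35 and 7.59 in WKY-air (limma log2 fold change 0.51 with SE 0.12 and adjusted p = 0.0335), close to the offset in both strains. The other overlapped between the strains (limma log2 fold change 0.00 with SE 0.17 and adjusted p = 0.996). Myo1c, a membrane-linked myosin, averaged 3358 ± 273 in SH-air and 2686 ± 386 in WKY-air on 1 of its probe sets, and Myo18b, a myosin of striated muscle, averaged 1158 ± 30.2 in SH-air and 1091 ± 41.7 in WKY-air. Neither was called (limma adjusted p = 0.294 and 0.661).

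The kinesins, with 36 probe sets on 25 genes, held 1 call in each direction (5.56%, against 3.15% of all probe sets). Klc3, a light chain that couples kinesin to its cargo, had 58.3, 140.2, 85.4 and 61.6 in SH-air and 7.45, 20.9, 9.49 and 14.4 in WKY-air. The WKY-air arrays were near or below the offset and all SH-air arrays were above them (limma log2 fold change 1.77 with SE 0.30 and adjusted p = 0.00669). For so dim a probe set the size depends on the fit, and the log2 fold change ran from 0.95 to 2.64 over the alternatives. Kifap3, the cargo-binding subunit of kinesin-2, had 127, 118, 150.0 and 162 in SH-air and 227, 204, 251 and 201 in WKY-air on 1 of its 2 probe sets (limma log2 fold change −0.61 with SE 0.13 and adjusted p = 0.0171). On the other the signals ran from 224 to 266 in SH-air and from 194 to 299.8 in WKY-air (limma adjusted p = 0.995). Kif5b, the heavy chain of conventional kinesin, averaged 2676 ± 272 in SH-air and 2470.2 ± 651 in WKY-air, and Kif1c, which also carries vesicles, averaged 1991 ± 271 in SH-air and 1949 ± 47.7 in WKY-air. Neither was called (limma adjusted p = 0.808 and 0.959).

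Of the 15 probe sets with tubulin names, 11 are of tubulin chains and 4 of γ-tubulin complex proteins. None was called in air, where 3.15% of all probe sets were. At an unadjusted p under 0.05 there were 4, all tubulin chains and all lower in SH-air, as were 8.52% of all probe sets. Tubb5, a widely made β-tubulin, had 887, 676, 835 and 755 in SH-air and 1132, 1199, 913 and 1208 in WKY-air on 1 of its 2 probe sets (limma log2 fold change −0.49 with SE 0.14 and adjusted p = 0.0769), and it was called in 3 other fits, without the dimmest 40% of probe sets, with an intensity trend and with array weights (limma adjusted p = 0.0349, 0.0338 and 0.0481). Those 3 fits called 8.05%, 4.74% and 3.44% of the probe sets in them, against 3.15% in the fit reported above. The second Tubb5 probe set was at a log2 difference of −0.34 (SE 0.14, limma adjusted p = 0.211). Tubg1, γ-tubulin, which starts microtubules, averaged 535 ± 111 in SH-air and 702 ± 32.7 in WKY-air (limma log2 fold change −0.40 with SE 0.14 and adjusted p = 0.142). Tuba4a averaged 6088 ± 222 in SH-air and 6539 ± 574 in WKY-air, and Tubb4b averaged 4455 ± 439 in SH-air and 4286 ± 544 in WKY-air (SD, n = 4 each). Both are chains of the microtubule wall and neither was called (limma adjusted p = 0.653 and 0.853).

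The 7 lower calls lay nearer to the threshold than the 3 strongest higher ones, and they were lost more often when 1 array was left out. The share of all probe sets called in these fits is not given. Without SH-air replicate 1 none of the 7 passed, without SH-air replicate 2 there was 1, and without SH-air replicate 4 or WKY-air replicate 4 there were 2. Without WKY-air replicate 1, 2 or 3 there were 3, and without SH-air replicate 3 there were 4. Arpc4, Myo5b and Klc3 were called in each of the 16 fits that left out 1 array. Myo16, the higher call nearest to the threshold, was called in 10 of them.

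DE exposure of WKY rats gave 1 call among the 119 probe sets, higher (0.840%, against 1.88% of all probe sets, 1.37% higher and 0.511% lower). This was Klc3, with 83.8, 44.6, 36.7 and 71.4 in WKY-DE and 7.45, 20.9, 9.49 and 14.4 in WKY-air. All WKY-DE arrays were above all WKY-air arrays (limma log2 fold change 1.34 with SE 0.30 and adjusted p = 0.0399), with a log2 fold change of 0.67 to 2.11 over the alternatives. The call was kept in 6 of the 16 fits without 1 array and lost after quantile normalization (limma adjusted p = 0.0955). It was lost without any single WKY-DE array (adjusted p = 0.0572 to 0.0979), without any single WKY-air array (0.0527 to 0.0860), and without SH-air replicate 4 (0.0506) or SH-DE replicate 1 (0.0513), by limma. Without SH-DE replicate 3 or 4 the members called numbered 3, Klc3 and 2 lower.

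Among the probe sets that were not called, those with the lowest p values in WKY-DE were Anxa2, Flna, Anxa7, Actg1 and Vim, all lower. Anxa2 had 2249.8, 2182, 2749.9 and 2349 in WKY-DE, all below the lowest WKY-air array at 3225 (limma log2 fold change −0.63 with SE 0.16 and adjusted p = 0.0553). Actg1 had 7115, 7317, 8957 and 8203 in WKY-DE (limma log2 fold change −0.49 with SE 0.13 and adjusted p = 0.0617) and Vim had 3276, 3662, 4383 and 4141 (limma log2 fold change −0.63 with SE 0.18 and adjusted p = 0.0746). Anxa7 had 577, 594, 564 and 593 on the same probe set as above, a narrow range under the WKY-air range of 716 to 812 (limma log2 fold change −0.36 with SE 0.09 and adjusted p = 0.0613). Flna had 895, 941, 1078 and 1033 in WKY-DE, against 1941, 1754, 1531 and 2088 in WKY-air (limma log2 fold change −0.87 with SE 0.22 and adjusted p = 0.0554). All 4 WKY-DE arrays were below all 4 WKY-air arrays for each of these genes and for Lgals1, which averaged 5637 ± 271 in WKY-DE and 7318 ± 581 in WKY-air (limma log2 fold change −0.37 with SE 0.13 and adjusted p = 0.125). Over the 119 probe sets, 13 lay wholly below and 10 wholly above the WKY-air arrays, against 4.27% and 8.39% of all probe sets.

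These genes passed the test in several other fits of the same arrays. Each fit named here called a larger share of all features than the 1.88% of the fit reported above. The counts are therefore not read as particular to the members. With the dimmest 40% of probe sets left out, 6 of the members were called lower in WKY-DE: Flna, Anxa2, Actg1, Anxa7, Vim and Tubg1, with limma adjusted p values of 0.0248 to 0.0496 and 6.71% of the probe sets called. With an intensity trend and robust moderation, or with array weights, 5 were called lower (Flna, Anxa2, Actg1, Anxa7 and Vim) beside Klc3 higher, where 4.20% and 3.33% of all probe sets were called. With an offset at the 25th percentile, or with 1 probe set per gene, 4 were called lower (Flna, Anxa2, Actg1 and Anxa7), where 3.38% and 2.98% of the features were called. In the fits where they were called, the log2 fold change of Vim was −0.63 to −0.72 and that of Flna −0.84 to −0.93. The same WKY-air arrays stand on the other side of both this comparison and that of the strains in air.

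In SH rats, DE gave no call among the 119 probe sets with limma, as among all probe sets (0.00%). At an unadjusted p under 0.05 there were 12, 6 higher and 6 lower (10.1%, against 6.16% of all probe sets). The lowest p was that of Arpc4, with 935, 883, 757 and 859.8 in SH-DE and 1170.2, 1134, 1182 and 1247 in SH-air. The SH-DE arrays were all below the SH-air arrays, at 72.6% of their mean (limma log2 fold change −0.46 with SE 0.13 and adjusted p = 0.628). Tmsb15b2, a thymosin β, had 23.1, 39.5, 38.7 and 31.0 in SH-DE and 4.26, 1.61, 4.89 and 14.2 in SH-air, a dim probe set below the offset on all SH-air arrays (limma log2 fold change 1.15 with SE 0.37 and adjusted p = 0.691). Myo1c had 933, 725, 580.0 and 785 in SH-DE and 1166, 974, 1009.7 and 1172 in SH-air on a probe set other than that given above (limma log2 fold change −0.52 with SE 0.17 and adjusted p = 0.691), and the one given above was at a log2 difference of −0.17 (SE 0.16, limma adjusted p = 0.907). For the 7 probe sets called lower in SH-air, the SH-DE mean was 96.8% of the SH-air mean for Vim, 100.4% for Anxa2, 88.0% for Actg1, 111% for Lgals1, 109% for Anxa7, 106% for Arpc1b and 123% for Kifap3. The lowest limma adjusted p of the 7 in this comparison was that of Kifap3 (0.802).

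**Figure D3:**
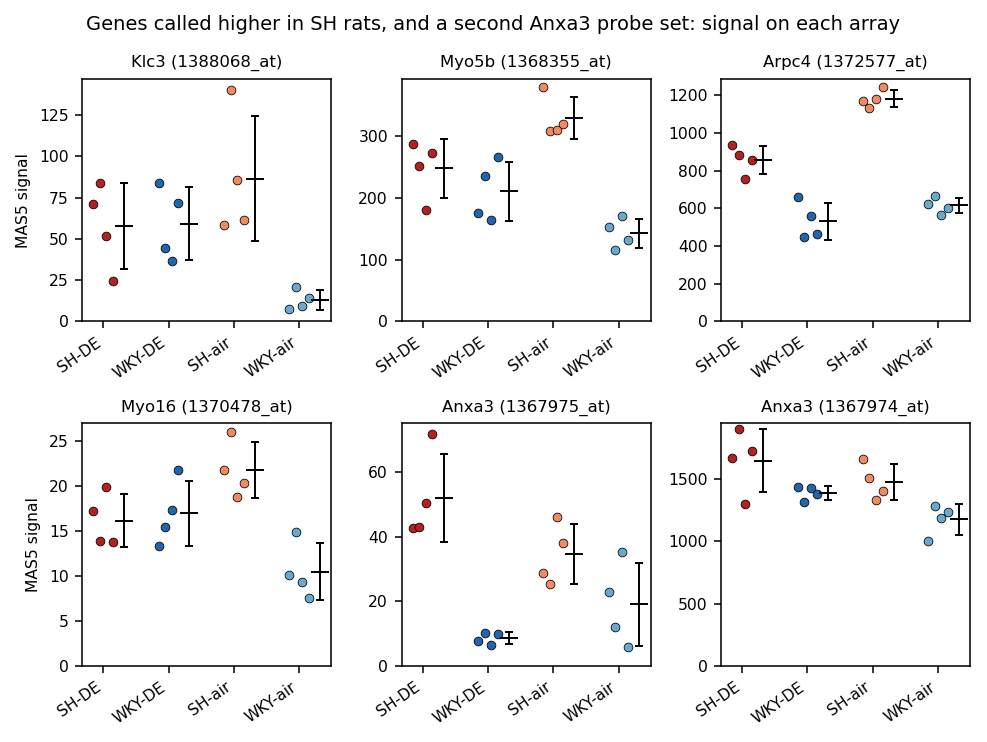
MAS5 signal (vertical axis, linear from 0) of the probe sets called higher in SH rats, and of another Anxa3 probe set, by group, with a point for each of the 16 arrays and a bar for the mean ± SD (n = 4). Arpc4 is higher in SH than in WKY arrays under both exposures, while the WKY-air arrays alone are low for Klc3, from 7.45 to 20.9.

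Between the strains under DE, 2 of the 119 probe sets were called, both higher in SH-DE than in WKY-DE (1.68%, against 0.813% of all probe sets, 0.460% higher and 0.353% lower). Arpc4 had 935, 883, 757 and 859.8 in SH-DE and 659.9, 447, 558 and 464 in WKY-DE. The strain ratio of Arpc4 was 1.61 under DE (limma log2 fold change 0.69 with SE 0.13 and adjusted p = 0.0166) and 1.92 in air, from separate arrays, without overlap in either. Its call under DE was lost without SH-DE replicate 1 or 2 (limma adjusted p = 0.0664 and 0.0618) and without WKY-DE replicate 2 or 4 (0.0629 and 0.0660), and in a fit of the 2 groups alone (0.146). Anxa3, a calcium-dependent phospholipid-binding protein, had 42.7, 43.2, 50.4 and 71.9 in SH-DE and 7.81, 10.1, 6.35 and 9.90 in WKY-DE on 1 of its 3 probe sets (limma log2 fold change 1.45 with SE 0.23 and adjusted p = 0.00565). The WKY-DE arrays were all below the offset. On the second probe set the signals were 1668, 1904, 1298 and 1722 in SH-DE and 1434, 1316, 1428 and 1381 in WKY-DE, which overlapped (limma log2 fold change 0.23 with SE 0.13 and adjusted p = 0.469), and the third was at a log2 difference of 0.02 (SE 0.40, limma adjusted p = 0.987).

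None of the 7 probe sets called lower in SH-air was called between the strains under DE. Vim averaged 3391 ± 789 in SH-DE and 3865 ± 494 in WKY-DE (SD, n = 4 each, limma log2 fold change −0.21 with SE 0.18 and adjusted p = 0.648), and Anxa2 averaged 2342 ± 461 in SH-DE and 2382 ± 254 in WKY-DE (limma log2 fold change −0.04 with SE 0.16 and adjusted p = 0.938). Actg1 averaged 6582 ± 584 in SH-DE and 7898 ± 849.6 in WKY-DE (limma log2 fold change −0.26 with SE 0.13 and adjusted p = 0.407). The groups overlapped for each of the 3. Kifap3 on its called probe set had 169.6, 180.1, 146 and 188 in SH-DE and 224, 212, 238 and 262 in WKY-DE (limma log2 fold change −0.42 with SE 0.13 and adjusted p = 0.152), and Arpc1b had 979, 1075, 939.5 and 943 in SH-DE and 1121, 1099, 1272 and 1107 in WKY-DE (limma log2 fold change −0.22 with SE 0.10 and adjusted p = 0.370). For both of these genes all SH-DE arrays were below all WKY-DE arrays, as in air. Klc3, called higher in SH-air, averaged 57.8 ± 25.8 in SH-DE and 59.1 ± 22.2 in WKY-DE (limma adjusted p = 0.956), Myo5b averaged 248 ± 47.6 in SH-DE and 211 ± 48.3 in WKY-DE (0.615), and Myo16 on its called probe set averaged 16.2 ± 2.95 in SH-DE and 17.0 ± 3.64 in WKY-DE (0.929). Arpc5l, a variant of the Arpc5 subunit of the Arp2/3 complex, is named after its values were seen. On 1 of its probe sets it had 1362, 1277, 908 and 1037 in SH-DE and 643, 887, 628 and 495 in WKY-DE (limma log2 fold change 0.79 with SE 0.19 and adjusted p = 0.0735), and it was called in 4 other fits (limma adjusted p = 0.0182 to 0.0438). Those 4 fits called 1.21% to 2.75% of the probe sets in them, against 0.813% in the fit reported above. The second Arpc5l probe set was at a log2 difference of −0.05 (SE 0.47, limma adjusted p = 0.973).

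The strain difference in air and that under DE come from separate arrays. Over the 119 probe sets the log2 fold changes of the 2 comparisons had r = 0.29 (0.24 by Spearman's ranks), and over all 15866 probe sets r = 0.19 (0.10 by ranks). These are correlations across probe sets, which are no independent replicates. Of the 11 probe sets called in air, 8 had the same sign under DE (72.7%, against 81.6% of the 499 called over the whole array), and Arpc4 was the 1 called in both. The DE effects in WKY and in SH rats, also from separate arrays, had the same sign for 70 of the 119 (58.8%, against 52.4% of all probe sets), with r = 0.16 over the 119 and r = 0.03 over all.

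**Figure D4:**
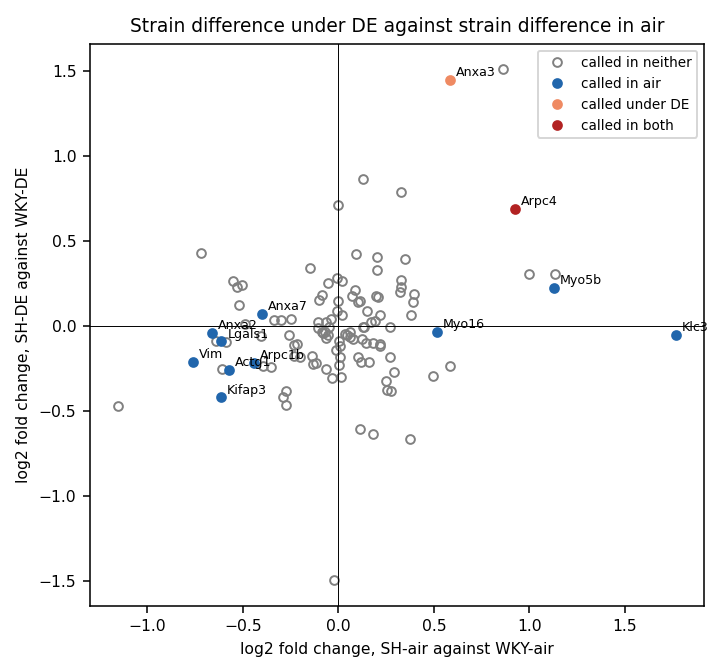
Log2 fold change of SH-DE against WKY-DE (vertical axis) and of SH-air against WKY-air (horizontal axis) for the 119 probe sets, with called probe sets named. Arpc4 is the 1 probe set called in both, Anxa3 is called under DE, and the 10 others called in air lie nearer to 0 on the vertical axis than Arpc4.

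Against WKY-air, SH-DE gave 6 calls, 3 lower and 3 higher (5.04%, against 1.94% of all probe sets, 0.889% lower and 1.05% higher). Actg1 at a log2 difference of −0.75 (SE 0.13, limma adjusted p = 0.00859), Vim at a log2 difference of −0.84 (SE 0.18, limma adjusted p = 0.0262) and Anxa2 at a log2 difference of −0.67 (SE 0.16, limma adjusted p = 0.0458) were lower, the differences being between group means. Klc3 at a log2 difference of 1.29 (SE 0.30, limma adjusted p = 0.0462), Anxa3 on its called probe set at a log2 difference of 1.01 (SE 0.23, limma adjusted p = 0.0367) and Myo5b at a log2 difference of 0.73 (SE 0.18, limma adjusted p = 0.0495) were higher. Actg1 was called in each of the 16 fits without 1 array, whereas the number of calls ran from 1 to 9. It was 1 without SH-DE replicate 1 or 2 or WKY-air replicate 2 or 4, 2 without SH-DE replicate 4, SH-air replicate 4, WKY-air replicate 1 or 3 or WKY-DE replicate 1 or 2, and 9 without SH-DE replicate 3.

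The strain by DE interaction asks whether DE moved a gene differently in SH than in WKY rats. None of the 119 probe sets passed with limma, where 0.00630% of all probe sets did, and 18 had an unadjusted p under 0.05, 11 above and 7 below 0 (15.1%, against 12.5% of all). Klc3 had the lowest p at a log2 difference of −1.82 (SE 0.43, limma adjusted p = 0.163), followed by Myo5b at a log2 difference of −0.90 (SE 0.25, limma adjusted p = 0.214) and Anxa7 on its called probe set at a log2 difference of 0.47 (SE 0.13, limma adjusted p = 0.220), where a positive value means a higher response to DE in SH. The log2 interaction values of Anxa2, Lgals1, Flna and Vim were 0.62, 0.52, 0.82 and 0.55, with limma adjusted p values of 0.293, 0.285, 0.312 and 0.385. A different response of the strains was not shown for any of these genes.

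Markers of some other cells also differed between the groups, and not every list checked is given here. For 5 adipocyte markers the summed signal was not highest in WKY-air, at 4298 to 5027 against 4965 to 6134 in SH-air. The summed signal of 8 atrial cardiomyocyte markers was 14129 to 35695 in SH-DE, 14134 to 43948 in WKY-DE, 13572 to 25213 in SH-air and 34574 to 98307 in WKY-air. Of the 8, 5 were called lower in SH-air than in WKY-air, where 1.79% of all probe sets were. Myl7, the atrial myosin light chain, averaged 2400.0 in SH-DE and 3404 in WKY-DE, and in rats given air it averaged 73.9 in SH and 12882 in WKY. The summed signal of 13 fibroblast markers, Vim left out, was 30261 to 34683 in SH-DE, 30772 to 37396 in WKY-DE, 26409 to 29959 in SH-air and 40709 to 48305 in WKY-air, so that all WKY-air arrays were above all others. With Vim counted, 9 of 14 fibroblast markers were called lower in SH-air, where 1.79% of all probe sets were. In WKY-DE 2 were called lower, against 0.511% of all probe sets. Both comparisons were with WKY-air, and no marker was called higher. Vim, Lgals1, Anxa2, Anxa7 and Actg1 likewise had their highest signals on the WKY-air arrays. The summed signal of 9 ventricular cardiomyocyte markers was 181070.0 to 223470.0 in SH-DE, 186900.0 to 274790.0 in WKY-DE, 226110.0 to 244380.0 in SH-air and 246550.0 to 336230.0 in WKY-air, so that both SH groups lay below WKY-air. Of the 9, 1 was called lower in SH-air, 1 in WKY-DE and 2 in SH-DE, each against WKY-air. Over all probe sets the shares called lower were 1.79%, 0.511% and 0.889%. None of 9 endothelial, 10 smooth muscle and pericyte or 10 macrophage markers was called in SH-air. With 3.15% of all probe sets called, the absence of a call on lists so short does not set these cells apart. At an unadjusted p under 0.05 by limma, 3 endothelial and 4 macrophage markers were lower in SH-air and none was higher. Of the smooth muscle and pericyte markers 2 were lower and 1 higher, and of all probe sets 8.52% were lower. The part of these cell types in the results was not tested.

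On 2 arrays outside WKY-air the atrial sum lay within the WKY-air range, SH-DE replicate 3 (35695) and WKY-DE replicate 3 (43948). Vim had 4194 on the SH-DE array and 4383 on the WKY-DE array, against a lowest WKY-air signal of 4564. For Anxa2 the values were 2948 and 2749.9 against 3225, and for Actg1 they were 6750.0 and 8957 against 9607. Lgals1 and Anxa7 were likewise below every WKY-air array on both, and Flna was so on the WKY-DE array but not on the SH-DE array (1945). Within their own groups these 2 arrays had the highest signals of Vim, Anxa2 and Flna. Their fibroblast sums were also the highest of the group, 34683 in SH-DE and 37396 in WKY-DE. The signal of Actg1 was highest of its group on the WKY-DE array only, and that of Anxa7 on the SH-DE array only. The part of the marker cells in these signals was not tested. With both arrays left out, the members called numbered 11 in SH-air and 1 in WKY-DE against WKY-air, and the 1 was then Flna. In that fit 0.605% of all probe sets were called in WKY-DE, and the share in SH-air is not given. Neither count is read as particular to the members.

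With the mean log2 marker signal of each array as a covariate, no member was called between SH-air and WKY-air, with either the atrial or the fibroblast list, and standard errors rose, for Vim to 0.28 and 0.41. The atrial means were 8.01 to 8.52 in SH-air and 10.15 to 11.5 in WKY-air. The fibroblast means were 9.74 to 10.04 in SH-air and 10.5 to 10.73 in WKY-air. Neither overlapped, so a strain difference in air at an equal marker level is extrapolated, and the lost calls decide nothing about single genes. The log2 fold change of Vim was −0.36 with the atrial and −0.45 with the fibroblast covariate, and that of Anxa2 was −0.18 with the atrial and −0.17 with the fibroblast covariate. Actg1 was at −0.37 with the atrial and −0.31 with the fibroblast covariate. Arpc4 was at 0.81 with the atrial and 1.08 with the fibroblast covariate, and Klc3 at 1.75 with the atrial and 1.88 with the fibroblast covariate. Kifap3 was at −0.69 with the atrial and −0.77 with the fibroblast covariate, and Myo5b at 0.77 with the atrial and 0.29 with the fibroblast covariate. All 11 probe sets called in air without a covariate kept their direction with both. Between SH-DE and WKY-DE, where the marker sums overlapped, Arpc4 (limma adjusted p = 0.0457 and 0.0285) and Anxa3 on its called probe set (0.0163 and 0.00804) were called with the atrial and with the fibroblast covariate.

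**Figure D5:**
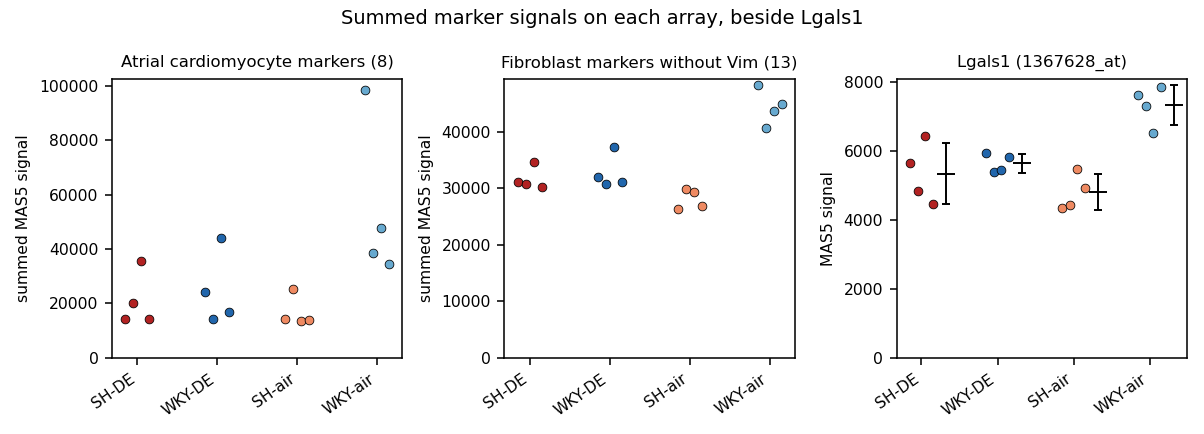
Summed MAS5 signals of 8 atrial cardiomyocyte markers and of 13 fibroblast markers without Vim (vertical axes, linear from 0) on each of the 16 arrays by group, beside the MAS5 signal of Lgals1 with its mean ± SD (n = 4). The fibroblast sum and Lgals1 are highest on the 4 WKY-air arrays, while the atrial sums of SH-DE replicate 3 and WKY-DE replicate 3 lie within the WKY-air range.

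The wider pathway lists placed these genes among their partners. Of 9 S100 proteins, small calcium-binding proteins of which several pair with annexins, all 9 had log2 fold changes below 0 in SH-air against WKY-air (median −0.57, against 0.02 over all probe sets), and 2 were called lower, where 1.79% of all probe sets were. These were S100a10, the partner of Anxa2 (limma log2 fold change −0.61 with SE 0.13 and adjusted p = 0.0229), and S100a11, a partner of Anxa1 (limma log2 fold change −0.80 with SE 0.17 and adjusted p = 0.0205). In SH-DE against SH-air all 9 were above 0 (median 0.32), with 4 at an unadjusted p under 0.05 and none called. In the interaction all 9 were above 0 as well, with 6 at an unadjusted p under 0.05, against 12.5% of all probe sets, and none called. Both comparisons hold the SH-air arrays. Among 40 other actin-binding proteins, Enah, which feeds actin filament ends, was called higher (limma log2 fold change 0.82 with SE 0.17 and adjusted p = 0.0168) and Gsn, gelsolin, which severs filaments and is also 1 of the fibroblast markers counted above, lower (limma log2 fold change −0.46 with SE 0.11 and adjusted p = 0.0384). Enah was also higher in SH-DE than in WKY-DE (limma log2 fold change 1.01 with SE 0.17 and adjusted p = 0.00729). Of 20 microtubule-associated and tubulin-modifying proteins Clasp1 was lower (limma log2 fold change −1.04 with SE 0.24 and adjusted p = 0.0283), and of 15 other intermediate filament proteins and lamins nestin, Nes, was lower (limma log2 fold change −0.71 with SE 0.18 and adjusted p = 0.0429). Synm, synemin, of the same list, was lower in SH-DE than in WKY-DE (limma log2 fold change −0.74 with SE 0.14 and adjusted p = 0.0216). In SH-air against WKY-air none was called of 17 non-muscle and smooth muscle contractile proteins, 17 dynein and dynactin subunits, 18 CCT chaperonin subunits and tubulin cofactors and 7 other galectins. Of all probe sets 3.15% were called between the strains in air and 0.813% under DE. On lists so short, single calls or none are not read as results about a list. In WKY-DE against WKY-air 1 gene of all these lists was called, where 1.88% of all probe sets were. It was Map1lc3a, a microtubule-associated autophagy protein, lower (limma log2 fold change −0.66 with SE 0.15 and adjusted p = 0.0398).

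Of the 90 genes, 24 have several probe sets. In 4 of them, Anxa3, Anxa7, Kifap3 and Myo16, 1 probe set was called in a comparison and another was not, and no gene was called on all of its several probe sets. The 12 probe sets called in any comparison belong to 12 genes, and the other 107 were called in none.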

How the data were processed

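RNA of the left ventricle of 16 rats, 4 in each of the groups SH-DE, WKY-DE, SH-air and WKY-air, was measured on 16 Affymetrix Rat 230A arrays. The deposited values are MAS5 signal intensities, which the authors computed per probe set and scaled so that each array has a trimmed mean of 500 (2% left out at each end, as found from the values). Groups and replicate numbers come from the labels, which call the 4 rats of a group biological replicates. After 57 control probe sets were left out, log2(signal + 16.1) of 15866 probe sets was fitted with limma 3.58.1 in R 4.3.3 as 1 model of 4 groups, with Benjamini-Hochberg adjustment over all probe sets, for 5 pairwise comparisons and the interaction. The fit was tested on simulated data. No array has a depth in reads, and 4 arrays per group limit the precision.

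The members were all probe sets whose single gene symbol in the platform annotation begins with Tuba, Tubb, Tubg, Arpc, Actr, Capz, Cfl, Pfn, Tmsb, Anxa, Klc, Kif or Myo and a digit, or is Vim, Actg1, Lgals1, Flna or Capg. Named in the text are every called member, the 3 of lowest p where a comparison had none, the 2 genes of highest mean signal in each role, the genes listed by name, Tubg1, Arpc1b and Tubb5, and genes whose probe sets disagree in a call. The members and lists were chosen with earlier results of these data known. Probe sequences were not used, so cross-reaction between close copies such as the actins and tubulins is uncertain. The alternatives changed the offset, the scaling, the filter on dim probe sets, the moderation, array weights, the arrays in the fit, the threshold, the replicate block and 1 probe set per gene, or added the atrial markers as a covariate. The fibroblast covariate was added after seeing the data. Upstream sequences are from RefSeq (GRCr8). One pathway list is not reported here.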

Additional observations from a re-analysis of the deposited data

Results flagged for a closer look

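In 10 of the 148 sets of 4 arrays checked, 1 array lay far from the other 3, where chance gives about 1 in 20. For Vim it was SH-air replicate 2, at 3845 against 3354 to 3427 on the other SH-air arrays, still below every WKY-air array. Myo5b stood at 379.8 on SH-air replicate 1 against 309 to 319, and Arpc1b at 1272 on WKY-DE replicate 3 against 1099 to 1121. Tuba4a was low on SH-air replicate 1, at 5758 against 6154 to 6227, and Tmsb4x was high on WKY-air replicate 1, at 13914 against 11979.8 to 12267. Myo18b had 1078 on WKY-DE replicate 4 against 965 to 968. The third probe set of Anxa3 had 80.8 on SH-DE replicate 2 against 125 to 127. The uncalled probe set of Myo16 had 28.2 on WKY-DE replicate 2 against 18.6 to 19.9, and 33.4 on WKY-air replicate 1 against 9.76 to 12.5. The summed signal of the atrial markers was 25213 on SH-air replicate 2 against 13572 to 14176 on the other SH-air arrays.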

How the results depend on the processing

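The number of members called depended on the threshold, the arrays in the fit and the markers. In SH-air against WKY-air (11 called) it was 3 at an adjusted p under 0.01, 3 with only the groups compared, 0 with the atrial and 0 with the fibroblast covariate, and 3 to 11 when 1 array was left out. In WKY-DE against WKY-air (1 called) it was 0 at an adjusted p under 0.01, after quantile normalization, with only the groups compared and with either covariate, 4 with an offset at the 25th percentile, 6 without the dimmest 40% of probe sets, 6 with an intensity trend, 6 with array weights, 5 with 1 probe set per gene, and 0 to 3 when 1 array was left out. In SH-DE against WKY-DE (2 called) it was 1 at an adjusted p under 0.01, 1 with only the groups compared, 1 with 1 probe set per gene, and 1 to 3 when 1 array was left out. In SH-DE against WKY-air (6 called) it was 1 at an adjusted p under 0.01, 3 with an offset of 1, 3 after quantile normalization, 10 without the dimmest 40% of probe sets, 11 with an intensity trend, 0 with only the groups compared and with either covariate, and 1 to 9 when 1 array was left out. SH-DE against SH-air and the interaction gave 0 in every fit run. The share called over the whole array moved as well. In SH-DE against WKY-air it was 1.94% in the fit reported above, 6.38% without the dimmest 40% and 3.82% with an intensity trend. In WKY-DE against WKY-air it was 1.88%, 6.71% and 4.20% in the same fits. Where no share over all probe sets is given here or above, the count cannot be read as particular to the members. This holds for the counts of 0, the fits without 1 array and the other counts without a share. The called results kept their direction in every fit in which they were recomputed. The cause of these changes was not tested.

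When replicate numbers entered as a block, calls among the members were 7 in SH-air against WKY-air, 0 in WKY-DE against WKY-air, 0 in SH-DE against SH-air, 1 in SH-DE against WKY-DE, 2 in SH-DE against WKY-air and 0 in the interaction. The share of all probe sets called with the block is not given, so these counts cannot be read as particular to the members. Arrays with the same number did not deviate together over all probe sets (r = −0.10 to 0.05 over 24 pairs). The labels do not say what the number stands for, and a factor that touches few probe sets would not show in this r. For the 6 members with a mean signal below 16.1, the added offset shrinks the fold change most.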
